A study of Mus musculus with 36 samples.

Results

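The step between 6 h and 9 h of low-serum culture was examined in C2C12 cells, an established line of mouse myoblasts, through 6 of the 36 arrays of a differentiation time course. The 3 arrays labelled as 9 h of differentiation were compared with the 3 labelled as 6 h, paired by replicate number and using all 46019 probes of the deposited raw table. At both times the cells had been moved out of growth medium with 20% fetal bovine serum into medium with 2% horse serum, and the line carried no stated genetic change. The triplicates were separate growths from successive passages of this 1 line. Because the replicate number was fitted as a block, steady differences between replicates were removed. The p-values below measure the spread that was left over all 36 arrays, in which growths, arrays and chips are mixed. The 3 h and 12 h arrays, also 3 each and in the same low-serum medium, were used for the steps on either side, and the 24 h arrays for the later level of the same genes.

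When serum is withdrawn, myoblasts stop dividing and start a muscle programme. MyoD and Myf5, the factors that mark myoblasts, act before myogenin, the factor that turns on terminal differentiation, and all of them bind the short DNA motif CANNTG (the E-box) as partners of E proteins. Id proteins hold the E proteins back, cyclin-dependent kinase inhibitors such as p21 (Cdkn1a) and p57 (Cdkn1c) close the cell cycle, and sarcomere genes and the fusion protein myomaker (Mymk) follow. The hours from 6 to 9 h lie before the cells fuse into myotubes, and the question put to the arrays was which genes differed in level between them.

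No probe passed the test. Of 46019 probes, 0 had an adjusted p below 0.05 (limma moderated test, Benjamini-Hochberg over all probes), a background of 0.0%, and the smallest adjusted p was 0.0948. At an unadjusted p below 0.05 there were 3691 probes (8.02% of those tested), of which 2004 were higher at 9 h (4.35%) and 1687 lower (3.67%). Median scaling in place of quantile normalization gave 767 higher and 2596 lower, so the balance of directions over the table depends on the scaling. With 3 arrays at each time, a log2 change had a median standard error of 0.139, and the median half-width of its 95% interval was 0.283, against a median absolute change of 0.108. The gene differences below are therefore given as measured values, none of which passed the test between 6 h and 9 h unless another comparison is named. All levels are normalized log2 intensities of 1 probe, on which a difference of 1 is a doubling, and each was read from RNA of a whole culture, where fewer cells of a kind and less RNA per cell cannot be told apart.

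The chips set a limit on the comparison. Each array lay on 1 of 6 chips. The 9 h and 6 h arrays shared a chip in replicate 2 and lay on different chips in replicates 1 and 3. The 12 h and 24 h arrays lay on the chips of the 9 h arrays, and the 3 h arrays on those of the 6 h arrays, in every replicate, so 12 h against 3 h and 24 h against 3 h carry the same chip differences as 9 h against 6 h. Only replicate 2 gives a difference within a chip, and in replicates 1 and 3 time and chip cannot be told apart. Median raw intensity was 225, 207 and 287 on the 9 h arrays of replicates 1, 2 and 3, against 230, 186 and 218 on the 6 h arrays, within the 179 to 307 of the whole series.

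Among regulators, the largest difference belonged to Cdkn1c, which encodes the cyclin-dependent kinase inhibitor p57. Cdkn1c read 13.08, 12.40 and 12.68 at 9 h in replicates 1, 2 and 3, against 11.97, 11.32 and 11.67 at 6 h. All 3 arrays at 9 h lay above all 3 at 6 h, and the pairs differed by 1.11, 1.08 and 1.00, so the pair on 1 chip gave the middle value. The fitted change was 1.07 ± 0.21 (SE; 95% interval 0.64 to 1.50), 2.09-fold, with an adjusted p of 0.126 by limma. Over the wider interval from 3 h to 12 h, whose means use none of the 6 arrays although these enter the shared variance and block terms of the fit, Cdkn1c rose by 2.22 (adjusted p = 5.3e-08, limma). Its mean levels at 3, 6, 9, 12 and 24 h were 11.04, 11.65, 12.72, 13.26 and 14.70.

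Myogenin (Myog) read 11.67, 10.68 and 10.69 at 9 h, against 11.24, 9.87 and 10.48 at 6 h. It was higher at 9 h in every pair, by 0.43, 0.80 and 0.21, but the groups overlapped because the replicate 1 array at 6 h lay above the 9 h arrays of replicates 2 and 3. Its fitted change was 0.48 ± 0.28 (SE), with a limma adjusted p of 0.672. From 3 h to 12 h Myog rose by 1.33 (adjusted p = 0.00374, limma). Both earlier factors showed smaller differences of mixed sign. Myod1, which encodes MyoD, read 10.84, 10.26 and 9.63 at 9 h, against 10.61, 9.83 and 10.16 at 6 h, higher in replicates 1 and 2 and lower in replicate 3. Myf5 read 7.99, 7.56 and 7.36 at 9 h, against 8.46, 7.22 and 7.56 at 6 h, and was higher at 9 h only in replicate 2. Mef2c, a partner of the myogenic factors, had 3 probes, whose fitted changes of 0.17, 0.09 and 0.28 did not pass.

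Cdkn1a, which encodes p21, was already bright at 6 h and read 15.17, 14.74 and 15.10 at 9 h, against 15.04, 14.62 and 14.82 at 6 h. Its difference was 0.17 on the brighter probe and 0.27 on the other, positive in all 3 pairs on both, and neither passed. The brighter probe averaged 16.06 at 48 h and the other 16.05 at 144 h, near the top of the intensity scale. The sizes of these differences are therefore not exact. The D-type cyclin Ccnd1, which drives entry into the cell cycle, had 5 probes with changes between 0.00 and 0.20. Id1, Id2 and Id3, the Id proteins, differed by -0.01, -0.23 and -0.15 on their brightest probes. Id2 and Id3 were lower at 9 h in all 3 pairs, yet their 95% intervals, -0.64 to 0.17 and -0.49 to 0.18, contained 0. A second, dimmer probe of Id1 differed by -0.23, with 9 h arrays wholly below the 6 h arrays, and did not pass. No probe named here carried Myh3, the embryonic myosin heavy chain.

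**Figure D1:**
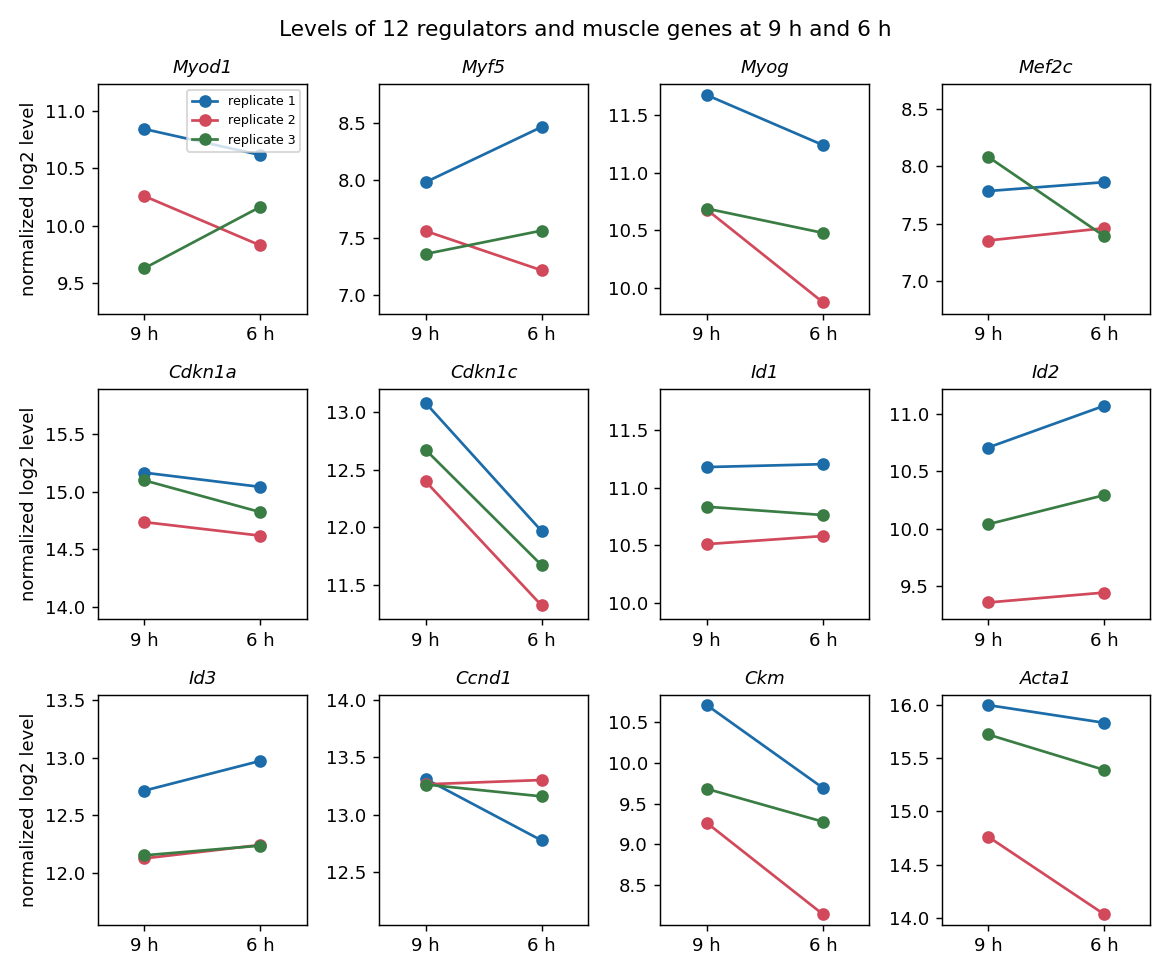
Normalized log2 level (vertical axis, 1 brightest probe per gene) of 12 regulators and muscle genes at 9 h and 6 h; each line joins the arrays of 1 replicate number and every panel spans the same number of log2 units unless its values need more. Cdkn1c is the only gene shown whose 3 values at 9 h all lie above the 3 at 6 h, by 1.11, 1.08 and 1.00 in the pairs, while Myod1 is higher in replicates 1 and 2 and lower by 0.53 in replicate 3.

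No muscle structure gene passed the test, and the larger of their differences were positive. Ckm, the muscle creatine kinase that buffers ATP, read 10.71, 9.26 and 9.68 at 9 h, against 9.69, 8.14 and 9.28 at 6 h, differences of 1.02, 1.12 and 0.40. Its fitted change was 0.85 ± 0.27 (SE), with a limma adjusted p of 0.501. The skeletal actin gene Acta1 read 16.00, 14.76 and 15.72 at 9 h, against 15.83, 14.03 and 15.39 at 6 h, a fitted change of 0.41 ± 0.31 (SE). The Acta1 probe averaged between 16.09 and 16.11 from 24 h to 144 h, near the top of the intensity scale, so the size of its difference is not exact. In both genes every pair was higher at 9 h while the groups overlapped, and replicate 2 sat lowest at both times.

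Over the list of contractile and structural genes, 17 of 20 genes had a probe, 36 probes in all. None passed, 8 were higher at an unadjusted p below 0.05 (background 4.35%) and 0 were lower (background 3.67%). They were Ckm, the myosin heavy and light chains Myh8 (0.73) and Myl4 (0.73), and the troponins Tnni1 (0.76), Tnnt3 (0.70), Tnni2 (0.60), Tnnt2 (0.44) and Tnnt1 (0.28). The list's median change was 0.11 over its 36 probes and 0.30 over the 24 whose mean level lay above the table's median, against 0.01 over all probes and 0.02 over those above the median. It was positive under the authors' normalization (0.02), median scaling (0.08) and cyclic loess (0.16), and 0.02 to 0.23 without single replicates or arrays. The lowest, 0.024, was without the 9 h array of replicate 3, where all probes had a median of 0.018. The level was higher in all 3 pairs for 15 of the 36 probes and lower in all 3 for 6, where 16.4% and 12.2% of all probes were. From 3 h to 12 h, 16 of the 36 rose and 0 fell (limma adjusted p below 0.05), with backgrounds of 1.31% and 0.706%. The probes of the giant or membrane-linked proteins Ttn and Dmd lay on both sides of 0 at 9 h against 6 h, and the median therefore mixes probes that differ within 1 gene.

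Genes of fusion and adhesion gave both directions. All 8 had a probe, 20 in all, with 0 called, 5 higher and 2 lower at an unadjusted p below 0.05 (backgrounds 4.35% and 3.67%) and a median of 0.04. Mymk, the membrane protein that fuses myoblasts, read 12.33, 10.87 and 11.46 at 9 h, against 11.71, 9.80 and 10.73 at 6 h. Its fitted change was 0.81 ± 0.31 (SE), and from 3 h to 12 h it rose by 1.95 (adjusted p = 0.000137, limma). M-cadherin (Cdh15), a myoblast adhesion protein, read 13.89, 14.16 and 14.13 at 9 h, against 13.72, 13.55 and 13.82 at 6 h, so its groups did not overlap. The other members at that unadjusted threshold were Bin1, a membrane-curving protein (0.33), both probes of the laminin receptor subunit Itga7 (0.26 and 0.55), the junction protein Jam2 (-0.34) and the adhesion molecule Ncam1 (-0.27). In 12 h against 3 h 5 of the 20 probes rose and 0 fell (backgrounds 1.31% and 0.706%).

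The list medians that follow were small, and several turn with the scaling: under median scaling those of the myogenic regulators (-0.13), fusion (-0.05), sterol (-0.06) and FoxO genes (-0.05) were negative, beside -0.03 for all probes. With the chip as a block those of the cell cycle (0.05), cell cycle exit (0.04), IGF (0.10), adipocyte (0.05) and smooth muscle genes (0.02) were positive, beside 0.01 for all probes. Without single replicates or arrays only the contractile, inhibitor and sterol medians kept 1 sign. Of 14 myogenic regulators 12 had a probe, 19 in all, with 0 called and a median of 0.03. Pax7, a factor of muscle stem cells, was alone at an unadjusted p below 0.05 (0.38), where the backgrounds were 4.35% higher and 3.67% lower. For the cell cycle and replication, 18 of 22 genes had 33 probes with a median of -0.04, which was 0.03 without replicate 3. There 0 were higher and 3 lower at the unadjusted threshold (backgrounds 4.35% and 3.67%): the replication helicase subunits Mcm6 (-0.52) and Mcm4 (-0.36) and the thymidylate synthase Tyms (-0.50). In 12 h against 3 h, 0 of the 33 passed the limma test, and 0 were higher and 3 lower at an unadjusted p below 0.05 (backgrounds 5.8% and 4.79%). For cell cycle exit, 7 of 8 genes had 13 probes with a median of -0.01. Beside Cdkn1c, the cyclin Ccnd3 was higher (0.32) and the pocket protein Rbl1 lower (-0.40) at the unadjusted threshold (backgrounds 4.35% and 3.67%), and neither passed after adjustment. From 3 h to 12 h, 3 of the 19 myogenic regulator probes rose and 0 fell (limma adjusted p below 0.05). Of the 13 cell cycle exit probes 3 rose and 1 fell there (backgrounds 1.31% and 0.706%).

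Serum response and immediate early genes, which react to the medium change, had 21 probes for all 15 genes and a median of -0.02. At the unadjusted threshold 0 were higher and 2 lower (backgrounds 4.35% and 3.67%, as for the next 3 lists). The pair were the matrix-associated proteins Ccn1 (-0.61) and Ccn2 (-0.58), and of both the replicate 3 array at 9 h was the lowest, at 10.13 and 12.17 against 11.69 and 13.35 at 6 h. Inhibitors of differentiation had 11 probes for all 10 genes and a median of 0.13, which was 0.05 when the replicate 3 array of 6 h was left out and 0.04 under median scaling, and 3 were higher at the unadjusted threshold. They were the Notch targets Heyl (0.63) and Hey1 (0.36) and the repressor Msc (0.37), and of these Heyl rose from 3 h to 12 h (1.22, adjusted p = 5.53e-05, limma). FoxO and low growth factor genes had 10 probes for 5 of 8 genes, a median of 0.02, with Foxo3 higher (0.27) and the cyclin Ccng2 lower (-0.39) at the unadjusted threshold. IGF genes, the growth factor axis of muscle, had 10 probes for all 6 genes, a median of -0.05, which was 0.03 when the replicate 1 array of 9 h was left out, and 0 at the unadjusted threshold. From 3 h to 12 h, 0 of the 21 serum response probes rose and 2 fell (limma adjusted p below 0.05). Of the 11 inhibitor probes 2 rose and 0 fell there, and 0 FoxO or IGF probes were called (backgrounds 1.31% and 0.706%).

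Sterol synthesis genes were also read in the preceding step. Of 9 genes 7 had 16 probes, with a median change of 0.07 between 6 h and 9 h and of 0.48 between 3 h and 6 h, comparisons that share the 6 h arrays and were not tested against each other as a list. At 9 h against 6 h the cyclase Lss was the sole member at the unadjusted threshold (0.44), where the backgrounds were 4.35% higher and 3.67% lower. The squalene epoxidase Sqle rose from 3 h to 6 h on 1 of its 3 probes (0.67, adjusted p = 0.00476, limma), and that probe's difference at 9 h against 6 h was -0.08. In 12 h against 3 h, 5 of the 16 sterol probes rose and 0 fell (limma adjusted p below 0.05, backgrounds 1.31% and 0.706%).

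**Figure D2:**
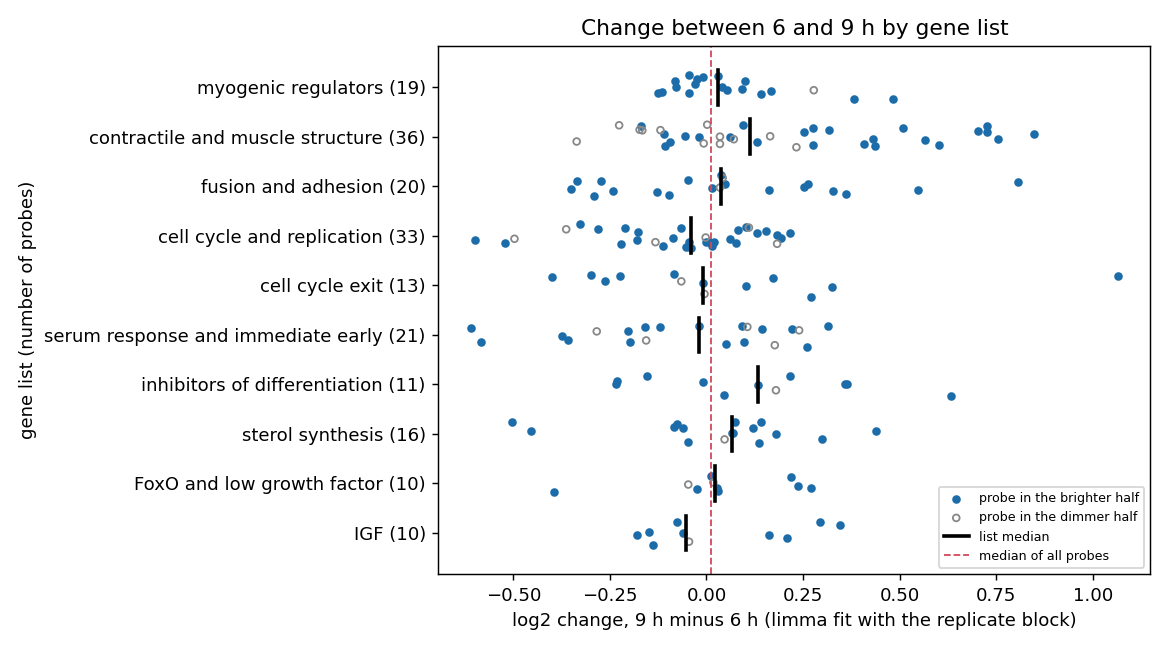
Fitted log2 change, 9 h minus 6 h (horizontal axis), of every probe in 10 gene lists, with filled points for probes whose mean level lay above the table's median, open points for those below, black bars for list medians and a dashed line for the median of all probes at 0.01. Contractile genes spread from -0.34 to 0.85 with a median of 0.11, and the point farthest right is Cdkn1c at 1.07.

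Markers of other cell types did not pass between 6 h and 9 h either. For each of these lists the backgrounds at an unadjusted p below 0.05 were 4.35% higher and 3.67% lower. Of osteoblast markers 4 of 7 had 5 probes with a median of -0.06, and only the Col1a1 probe was above its array's median on all 6 arrays; Ibsp was lower at the unadjusted threshold (-0.34). Adipocyte markers had 12 probes for 6 of 7 genes and a median of -0.02, with 2 probes of Lpl at the unadjusted threshold and opposite in sign (-0.52 and 0.34). Fibroblast markers had 17 probes for all 8 genes, a median of -0.07 and 0 at that threshold. Chondrocyte markers had 6 probes for 3 of 4 genes and a median of -0.07, with 1 Acan probe higher (0.29). Of smooth muscle markers, 10 probes for all 4 genes had a median of -0.07, and 2 of the 5 probes of the smooth muscle actin Acta2, a gene that myoblasts also express, were lower (-0.56 and -0.49). Reserve cell markers had 5 probes for 5 of 6 genes and a median of 0.01, with Pax7 and Hey1 higher at the unadjusted threshold. In 12 h against 3 h, 2 adipocyte, 2 smooth muscle and 2 reserve cell probes fell (limma adjusted p below 0.05, background 0.706%). There 0 marker probes of any of these lists rose (background 1.31%).

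The 24 largest differences with a gene symbol were taken from probes that moved the same way in all 3 pairs and were above the array median on all 6 arrays. With a symbol 4710 probes did, 3059 of them higher and 1651 lower at 9 h. Of all probes, with or without a symbol, 18560 were above the median on all 6 arrays. The split of directions holds for quantile normalization, and the balance over the table depends on the scaling. They were chosen by the size of the difference itself, so these values describe and are not tested again. The 12 positive ones were Cdkn1c, the hormone Fgf21 (1.04), the muscle phosphoglycerate mutase Pgam2 (0.94), the Z-disc actinin Actn2 (0.86), Ckm, the secreted protein Ccn5 (0.81), the sugar transporter Slc2a6 (0.81), Mymk, the calcium-store protein Casq2 (0.76), the myosin-binding protein Mybph (0.76), the slow troponin Tnni1 (0.76) and the Z-disc protein Myoz2 (0.74). The next probe outside stood at 0.73. Their adjusted p by limma lay between 0.126 and 0.597. The 9 h arrays lay wholly above the 6 h arrays for 2 of the 12, Cdkn1c and Ccn5 (background 5.33%, over probes not so chosen).

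Pgam2 read 10.56, 9.19 and 9.71 at 9 h, against 9.33, 8.21 and 9.09 at 6 h. Actn2 read 10.91, 9.21 and 9.58 at 9 h, against 9.90, 8.13 and 9.08 at 6 h. In both genes replicate 3 gave the smallest difference, 0.62 and 0.49, and this held for 10 of the 12. The median difference over the 12 was 0.85, 1.08 and 0.61 in replicates 1, 2 and 3, so the pair on 1 chip gave the highest.

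The same 12 probes were then read in arrays whose levels had not chosen them. Their comparisons with 3 h still carry the same chip differences as 9 h against 6 h. The backgrounds cover probes not chosen for brightness and a rise in every pair, so they are not a like comparison. From 3 h to 12 h, 11 of the 12 rose (limma adjusted p below 0.05, background 1.31%), with a median change of 2.15 over the 12 and a range of 1.39 to 2.60. Fgf21 was the exception, with a change of 1.39 and a limma adjusted p of 0.0649. In 24 h against 3 h, where 3565 probes were called (7.75%), 2007 higher (4.36%) and 1558 lower (3.39%), or 1517 higher and 498 lower under median scaling, all 12 rose by limma. Their median change there was 4.11, from 2.22 for Ccn5 to 4.86 for Actn2. In the 3 h steps that share arrays with the comparison, 11 of the 12 were positive at 6 h against 3 h (median 0.84, Fgf21 at -0.24) and 12 were positive at 12 h against 9 h (median 0.46).

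The promoters of 4 genes that were higher at 9 h in every pair are printed because the factors named above bind CANNTG, and the capitals mark each CANNTG. Windows run 5′ to 3′ on the gene's strand from 250 bases before to 50 bases after the start site, from RefSeq on GRCm38.p6. Myog lies at chr1:134289754-134290053 on the plus strand, Ckm at chr7:19410844-19411143 on the plus strand, Pgam2 at chr11:5803747-5804046 on the minus strand and Actn2 at chr13:12340683-12340982 on the minus strand.
Myog: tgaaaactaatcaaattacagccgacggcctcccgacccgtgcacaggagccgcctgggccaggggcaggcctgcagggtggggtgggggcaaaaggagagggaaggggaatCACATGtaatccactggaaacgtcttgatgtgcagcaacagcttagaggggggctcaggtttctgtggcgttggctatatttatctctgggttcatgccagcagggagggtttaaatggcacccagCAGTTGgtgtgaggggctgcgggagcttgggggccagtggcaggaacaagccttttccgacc
Ckm: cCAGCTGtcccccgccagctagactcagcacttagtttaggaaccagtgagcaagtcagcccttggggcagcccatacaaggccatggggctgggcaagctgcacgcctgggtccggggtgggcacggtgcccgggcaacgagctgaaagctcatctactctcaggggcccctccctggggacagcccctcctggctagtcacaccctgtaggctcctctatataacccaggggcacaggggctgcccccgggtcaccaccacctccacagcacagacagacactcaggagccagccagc
Pgam2: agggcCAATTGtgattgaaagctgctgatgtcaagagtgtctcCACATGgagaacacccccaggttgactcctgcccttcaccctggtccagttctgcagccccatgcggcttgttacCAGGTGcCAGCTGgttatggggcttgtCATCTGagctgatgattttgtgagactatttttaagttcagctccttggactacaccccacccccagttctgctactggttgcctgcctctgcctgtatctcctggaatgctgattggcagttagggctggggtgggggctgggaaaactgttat
Actn2: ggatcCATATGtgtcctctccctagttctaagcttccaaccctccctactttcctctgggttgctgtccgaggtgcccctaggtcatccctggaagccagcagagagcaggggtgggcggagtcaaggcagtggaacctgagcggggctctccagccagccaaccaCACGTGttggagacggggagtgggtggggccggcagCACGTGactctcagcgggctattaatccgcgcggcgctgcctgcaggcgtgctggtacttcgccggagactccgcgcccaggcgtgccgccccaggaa
Counting from the start site, the Myog window held CACATG at -138 and CAGTTG at -12, and the Ckm window held CAGCTG at -249. The Pgam2 window held 5 copies of CANNTG, among them CAGGTG at -132 and CAGCTG at -125, and the Actn2 window held 3, among them CACGTG at -84 and -48. CANNTG reads as CANNTG on both strands, CAGCTG is 1 form of it, and 72.3% of 32851 RefSeq promoter windows of 300 bases held CANNTG while 16.3% held CAGCTG. Of the 12 leading positive genes and Myog, 10 of 13 had a window, 11 windows in all, of which 11 held CANNTG and 7 held CAGCTG. These matches describe letters in the windows and no binding was measured.

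The 12 largest negative differences were those of the mitochondrial chaperonin Hspd1 (-1.22), the kinesin-binding membrane protein Ktn1 (-1.20), Sh3bgrl (-1.14), the matrix proteoglycans Omd (-1.10) and Ogn (-0.91), the splicing regulator Mbnl1 (-1.01), the dynein chain Dynlt3 (-0.97), the topoisomerase Top2b (-0.94), the chaperone of the endoplasmic reticulum Hspa5 (-0.93), the cohesin subunit Smc3 (-0.91), the transcription factor Gabpa (-0.86) and the chromatin remodeller Smarca5 (-0.86). The next probe outside stood at -0.85. Their limma adjusted p lay between 0.398 and 0.581, and for 9 of the 12 the 9 h arrays lay wholly below the 6 h arrays (background 3.92%). That background covers probes not chosen for a large fall in every pair, so it is not a like comparison.

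From 3 h to 12 h all 12 were negative but 0 passed (limma adjusted p below 0.05, background 0.706%) and 1 had an unadjusted p below 0.05, with a median of -0.32 and a range of -0.83 to -0.02. In 24 h against 3 h 7 of the 12 fell (limma adjusted p below 0.05, background 3.39%), Omd, Ogn, Mbnl1, Sh3bgrl, Smc3, Smarca5 and Dynlt3, and the median of the 12 was -1.23. Both comparisons with 3 h carry the same chip differences as 9 h against 6 h. At 12 h against 9 h 11 of the 12 were positive, with a median of 0.39. That step shares the 9 h arrays whose low levels helped choose the probes, so positive signs there follow in part from the choice.

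The replicates did not share these differences evenly. Mbnl1 read 12.97, 12.34 and 13.52 at 9 h, against 14.23, 13.92 and 13.72 at 6 h, so that replicates 1 and 2 were lower by 1.26 and 1.58 and replicate 3 by 0.21. Over the 12 genes the median difference was -1.19, -1.31 and -0.30 in replicates 1, 2 and 3. Hspd1 ran the other way. It read 13.92, 13.53 and 11.45 at 9 h, against 14.40, 14.01 and 14.14 at 6 h, and its fitted change rests on replicate 3, without which it was -0.48, or -0.52 without the replicate 3 array at 9 h alone. Ktn1 was the most even of those named, at 9.82, 9.26 and 9.15 at 9 h against 11.13, 10.47 and 10.23 at 6 h, differences of -1.31, -1.21 and -1.08.

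**Figure D3:**
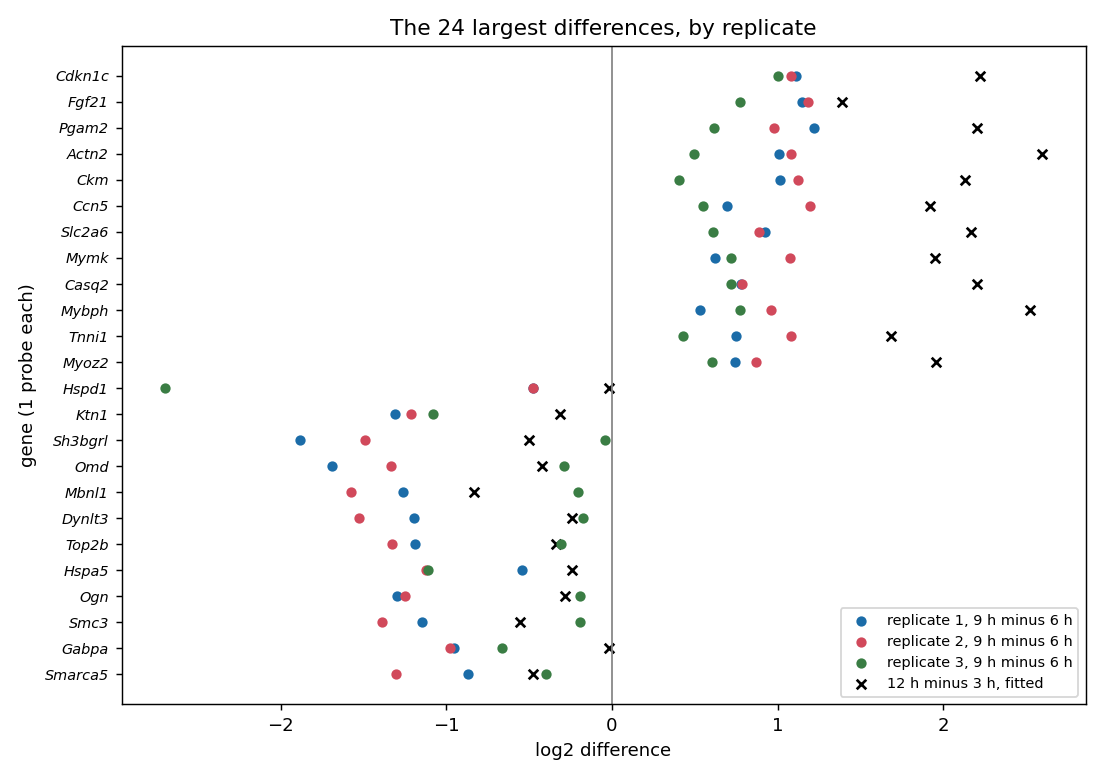
Log2 difference, 9 h minus 6 h (horizontal axis), in each of the 3 replicates for the 12 largest positive and 12 largest negative probes, with crosses for the fitted change of 12 h minus 3 h. The crosses of the positive genes lie between 1.39 and 2.60 and those of the negative genes between -0.83 and -0.02, and replicate 3 of Hspd1 stands alone at -2.70.

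Over the whole table, replicate 3 also stood apart from the other pairs. The differences of 9 h minus 6 h correlated across the 46019 probes with a Pearson r of 0.32 between replicates 1 and 2, -0.04 between 1 and 3 and -0.05 between 2 and 3. These correlations are across probes, which are not independent, and each pair is a difference of 2 arrays. Probes at least 2-fold lower at 9 h numbered 203 in replicate 1, 236 in replicate 2, whose arrays share a chip, and 90 in replicate 3. Those at least 2-fold higher numbered 48, 15 and 7. In the step before, 6 h against 3 h, probes lower by that much numbered 88, 8 and 9 and those higher 116, 21 and 13. In the step after, 12 h against 9 h, 16, 5 and 1 were lower and 33, 25 and 11 higher, with both arrays of every such pair on 1 chip.

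Replicates 1 and 2 shared 106 of the probes that were at least 2-fold lower, 52.2% of those in replicate 1 and 44.9% of those in replicate 2, while replicate 3 shared 1 with replicate 1 and 2 with replicate 2. The 106 were chosen on replicates 1 and 2, where their median differences were -1.20 and -1.31. In replicate 3, which did not choose them, their median difference was 0.45, and 15 of the 106 (14.2%) were lower at 9 h, against 47.5% of all probes. Their median level on the 9 h arrays was 9.54, 9.24 and 10.66 in replicates 1, 2 and 3, against 10.83, 10.55 and 10.22 on the 6 h arrays. The 12 h medians were 10.07, 10.05 and 10.22, and those at 24 h were 9.80, 9.31 and 9.42. The wider spread at 9 h than at 12 h follows in part from choosing the probes on replicates 1 and 2. The replicates also differed at other times, the 1.5 h medians being 10.54, 9.39 and 9.27 and the 144 h medians 10.87, 8.76 and 9.12. In 12 h against 3 h 0 of the 106 were called by limma (backgrounds 1.31% higher and 0.706% lower). There 4 were lower at an unadjusted p below 0.05 (background 4.79%), with a median of -0.33 over the 106. The part of the passage, the chip or the hybridisation in this pattern was not tested, nor was whether the replicate 3 arrays match their labels.

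Of single probes, 3 (0.00652%) had an adjusted p below 0.1 in 9 h against 6 h, each at 0.0948 by limma, and they were singled out after their values were seen. Pdlim5, a Z-disc protein of muscle, read 9.91, 9.73 and 10.46 at 9 h, against 10.98, 10.29 and 10.91 at 6 h, lower in every pair by 1.07, 0.56 and 0.46. From 3 h to 12 h Pdlim5 fell by 1.08 (adjusted p = 2.13e-06, limma), and its mean levels at 3, 6, 9, 12 and 24 h were 11.02, 10.73, 10.03, 9.93 and 9.68. The other two probes, 2350736 and 3780039, carry no gene symbol here. They were higher at 9 h by 0.46 and 0.67, with 9 h arrays wholly above the 6 h arrays, and rose from 3 h to 12 h by 0.63 and 1.16 (adjusted p = 2.01e-05 and 2.03e-07, limma).

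The step from 6 h to 9 h was set beside its neighbours of equal length. In 6 h against 3 h, 43 probes were called (0.0934%), 23 higher (0.05%) and 20 lower (0.0435%), while median scaling gave 43 higher and 1 lower. In 12 h against 9 h 0 were called by limma, with 1681 at an unadjusted p below 0.05 (3.65%). Between 3 h and 12 h, 927 were called (2.01%), 602 higher and 325 lower. That split was 550 and 88 under median scaling and 261 and 79 without replicate 2. The difference of the steps, 9 h against 6 h minus 6 h against 3 h, was called for 1 probe (0.00217%), that of Msmo1, a methylsterol oxidase of cholesterol synthesis. In replicates 1, 2 and 3, Msmo1 read 10.99, 11.25 and 10.80 on the 3 h arrays, 12.36, 12.48 and 12.13 on the 6 h arrays and 12.09, 12.20 and 12.00 on the 9 h arrays. It rose from 3 h to 6 h in every replicate, by 1.31 in the fit (adjusted p = 1.22e-05, limma), and the 9 h level was lower than the 6 h level by 0.27, 0.29 and 0.13, a difference that did not pass. The difference of the steps was -1.54 ± 0.25 (SE; adjusted p = 0.037, limma), and it lost its call without the replicate block, with the chip as a block, under median scaling and in most fits that left out an array. For the later difference, 12 h against 9 h minus 9 h against 6 h, 0 probes were called by limma, with 2153 at an unadjusted p below 0.05 (4.68%).

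Hspa5 was also highest at 6 h among the 3, 6 and 9 h arrays in every replicate. As 1 of the 12 largest negative differences, it was chosen for a lower level at 9 h than at 6 h in every pair. That part of its course was therefore fixed by the choice. Hspa5 read 13.17, 10.88 and 11.83 on the 3 h arrays, 13.68, 12.19 and 12.42 on the 6 h arrays and 13.13, 11.07 and 11.31 on the 9 h arrays. Hspa5 differed from 6 h to 9 h by -0.93, where Msmo1 differed by -0.23, and in 12 h against 3 h by -0.24, which did not pass. Its difference of the steps was -1.73 ± 0.44 (SE), with a limma adjusted p of 0.643.

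**Figure D4:**
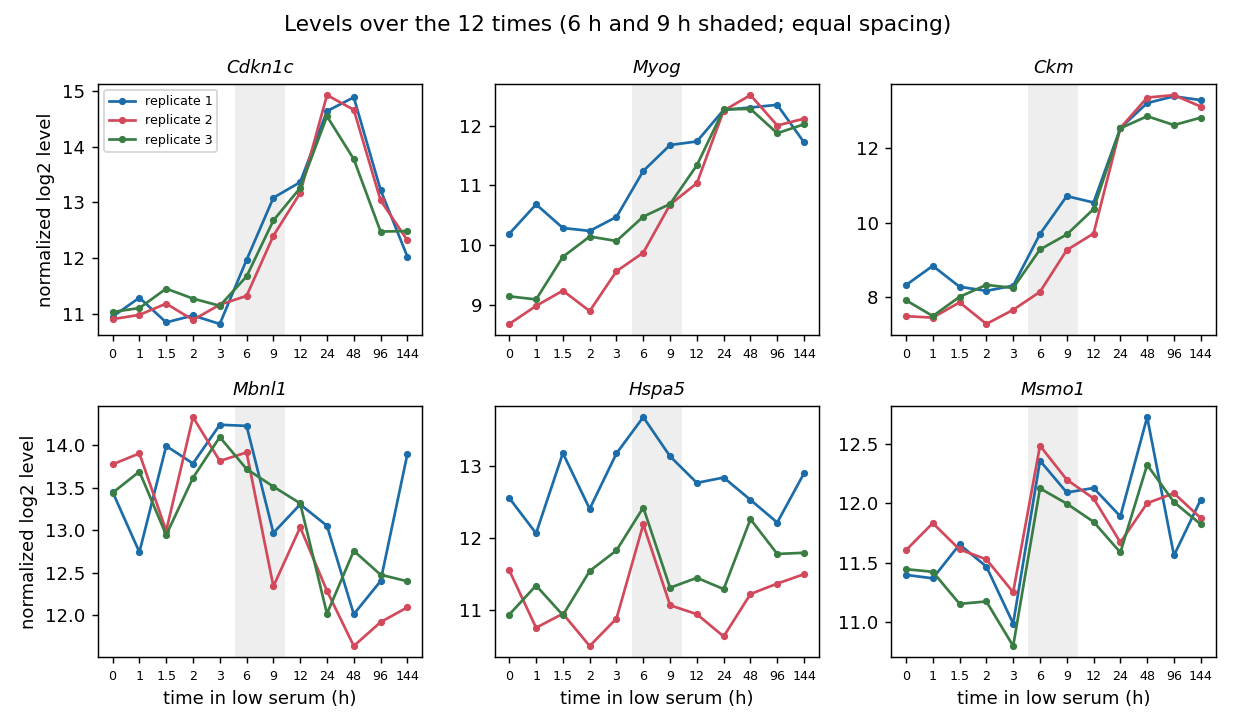
Normalized log2 level (vertical axis) of 6 genes on the arrays of each replicate at all 12 times, which are spaced equally and not to scale on the horizontal axis, with 6 h and 9 h shaded. Cdkn1c averages 11.04 at 3 h and 14.70 at 24 h, Mbnl1 separates at 9 h into replicates 1 and 2 (12.97 and 12.34) and replicate 3 (13.52), and Msmo1 is higher at 6 h than at 3 h and 9 h in every replicate.

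The 6 arrays were last placed on a time axis that they had not shaped, the first principal component of the other 30 arrays, which held 43.5% of their variance. In replicate 1 every array up to 6 h lay on 1 chip and every array from 9 h on another. Time and chip therefore cannot be told apart in that replicate's part of the axis or in its difference. In replicate 3 the 6 h array shared a chip with the 2, 3, 48, 96 and 144 h arrays. The 9 h array of replicate 3 shared another with the 0, 1, 1.5, 12 and 24 h arrays. Time and chip cannot be told apart in that difference either. On the axis the 9 h arrays scored -4.66, -13.5 and -22.0, against -21.3, -31.5 and -22.6 for the 6 h arrays, where a higher score is nearer to the late times. In replicates 1 and 2 the 9 h arrays scored above their own 12 h arrays, at -7.77 and -17.5, and in replicate 3 below, at -12.3. The 9 h arrays averaged -13.4 ± 8.69 and the 6 h arrays -25.1 ± 5.59 (SD, n = 3 each). Replicates 1 and 2 were 16.6 and 18.1 further along at 9 h and replicate 3 was 0.596 further, a mean of 11.7 ± 9.69 (SD, n = 3 pairs). The exact two-sided sign-flip permutation test gave p = 0.25, the smallest value that 3 pairs allow.

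**Figure D5:**
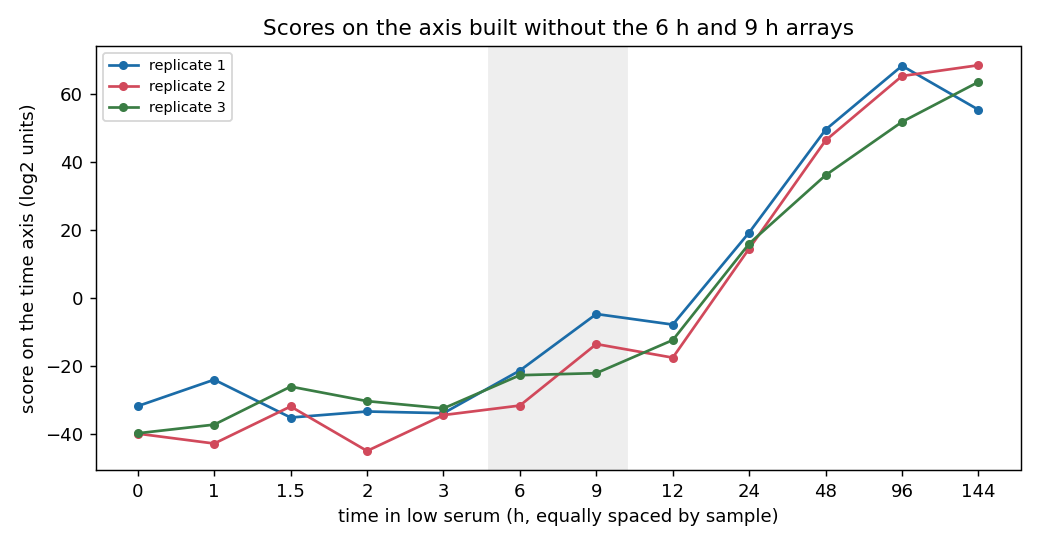
Score of every array on the axis (vertical, in log2 units) at the 12 times, which are spaced equally and not to scale, with 6 h and 9 h shaded and 1 line per replicate. At 9 h replicates 1 and 2 score -4.66 and -13.5 and lie above their 6 h arrays by 16.6 and 18.1, and replicate 3 lies at -22.0, 0.596 above its own.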

How the data were processed

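Biotin-labelled cRNA made from Trizol-extracted total RNA, per the labels' protocols, was measured on Illumina Mouse WG-6 v1.1 arrays. Each array's deposited intensity values are linear and cover 46019 probes, with a minimum of 91.5. A second table by the authors gives normalized log2 values, by a method not given in the sources used here. Gene symbols came from the platform annotation: 44505 probes matched it through identical deposited log2 values to 5 decimals on 36 arrays, and 28471 of the 46019 probes had 1 symbol, 10 several and 17538 none.

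Raw intensities were corrected with limma's normexp method (offset 50), taken to log2 and quantile-normalized, and no probe was filtered. A mean for each of the 12 times and the replicate number as a block were fitted to all 36 arrays, which left 22 residual degrees of freedom, with empirical Bayes and an intensity trend. Tests were two-sided, with Benjamini-Hochberg adjustment over all probes and 0.05 as the threshold. The comparison was set up as paired. Deviations of same-numbered 9 h and 6 h arrays from their means correlated by 0.41, 0.32 and 0.02 across probes, so the third pair was not borne out by the data. For 12 h and 3 h arrays they correlated by 0.38, 0.42 and 0.11. The fit was also run on simulated data with independent noise for each probe and no chip differences. Such data cannot show how the fit handles the replicate 3 pattern or the chips. Software was limma 3.58.1 under R 4.3.3, with figures from matplotlib 3.10.9 in Python 3.11.15.

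The members, gene lists and tests were chosen with earlier results of these data known. The rule for naming genes took the 12 largest rises and 12 largest falls past the threshold, plus 13 chosen genes. No probe passed, so the threshold was dropped after the data were seen. The comparisons of 12 h and of 24 h with 3 h were also added then.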

Additional observations from a re-analysis of the deposited data

Results flagged for a closer look

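Msmo1 was the 1 probe for which the change from 6 to 9 h differed from the change from 3 to 6 h by the test of that difference (limma adjusted p = 0.037). The difference of the 2 steps was -1.54 on the log2 scale, made of -0.23 between 6 h and 9 h and 1.31 between 3 h and 6 h. In all 3 replicates the level was higher at 6 h than at 3 h and lower at 9 h than at 6 h. The part between 6 h and 9 h did not pass on its own. The call was lost under several settings, among them median scaling, the chip as a block and most fits that left out an array.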

How the results depend on the processing

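Of 20 alternatives for 9 h against 6 h, 17 called 0 probes, the chip as a block, the authors' normalized table and the fit without the replicate block among them, the last with 2081 probes at an unadjusted p below 0.05. A stricter filter (15715 probes above the median on all 36 arrays) called 6, Eif4e2, Pdlim5, Swap70, Bok and probes 2350736 and 3780039, and the 6 arrays alone with the replicate block called 2, Cdkn1c and Ktn1. Leaving out arrays gave 0 to 1, the 1 without the 6 h replicate 1. Median scaling turned the split at an unadjusted p below 0.05 to 767 higher and 2596 lower (22.8% higher, against 54.3% as reported). For 6 h against 3 h, called as 43, the count was 65 with the authors' table, 69 and 134 with the looser and the stricter filter on dim probes, 10 without the replicate block, 78 with the chip as a block, 241 and 1 on the compared arrays alone with and without the replicate block, and 0 to 30 without single replicates or arrays, 0 without replicate 3. The 1 call in the difference of the steps became 0 under median scaling, cyclic loess, no intensity trend, no replicate block, the chip as a block and the compared arrays alone without the block, and lay at 0 to 1 without single replicates or arrays. The later difference of steps gave 1 call on the compared arrays with the replicate block. For 12 h against 3 h, called as 927, the count was 359 without the replicate block, 2164 and 279 on the compared arrays with and without it, and 340 to 726 without single replicates or arrays, 340 without replicate 2. For 24 h against 3 h, called as 3565, it was 2015 under median scaling, 1940 without the replicate block, 5894 and 1934 on the compared arrays with and without it, and 1667 to 2950 without single replicates or arrays, 1667 without replicate 2. Of 34 named probes 29 kept their sign under every alternative, a count set in part by how the probes were chosen. The 12 largest positive and 12 largest negative among them were picked for moving the same way in all 3 pairs. Leaving out a whole replicate therefore could not reverse those. The 5 probes that turned, named next, were all outside that choice. Myod1 turned to -0.13 under median scaling, and Myf5 and Id1 to 0.02 and 0.065 with the chip as a block. Without single replicates or arrays Myod1 ranged from -0.15 to 0.33, Myf5 from -0.342 to 0.093, Mef2c from -0.092 to 0.306, Id1 from -0.080 to 0.083 and Id3 from -0.253 to 0.004. The mean difference on the time axis lay between 7.18 and 17.6, and without replicate 1 the lower of the pairs was at -0.378. The cause of these moves was not tested. The series' value table equalled the authors' normalized table, so it was not run as a further alternative. Signal over background could not be judged, since detection p-values were not used here.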
